A study of Mus musculus with 48 samples.

Results

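Liver was collected each hour from CT18 to CT65, so that every gene was read over 48 pools. Subjective dawn falls at CT0 and subjective dusk at CT12. The mice were 6-week-old male C57BL/6J, kept first in cycles of light and darkness and then in constant darkness, and every pool held liver of several such mice and was read on 1 Affymetrix mouse array. Nothing but the hour of collection set the pools apart by label. The second cycle is CT42 to CT65 and the first is CT18 to CT41. The values are linear intensities. The study's methods name GCRMA for extracting them and MAS5 for present and absent calls, while the labels name MAS5 only, and which made the values was not settled. The genes described here are the cytochrome P450s of the Cyp1, Cyp2, Cyp3 and Cyp4 families, chosen by symbol: Cyp1, Cyp2, Cyp3 or Cyp4 followed directly by a letter and a number. There were 56 such genes among 18194 with a symbol of their own, with the brightest probe set by mean standing for each gene. Of these, 3 belonged to Cyp1, 35 to Cyp2, 5 to Cyp3 and 13 to Cyp4. Cyp2d13 and Cyp4f41-ps are annotated as transcribed pseudogenes. A further 4 P450 probe sets carried more than 1 symbol and were left out, among them those for Cyp2a4 with Cyp2a5 and Cyp4a10 with Cyp4a31.

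P450s are heme enzymes of the endoplasmic reticulum that insert an oxygen atom into lipophilic molecules, with electrons from P450 oxidoreductase and, for some reactions, cytochrome b5. In liver, members of the Cyp1, Cyp2 and Cyp3 families oxidise drugs and other foreign compounds, and several Cyp2c and Cyp2j enzymes also form epoxides of arachidonic acid. Cyp4 enzymes mostly hydroxylate the end of fatty acid chains and of eicosanoids. The receptors AHR, CAR (Nr1i3), PXR (Nr1i2) and PPAR alpha switch on different members, and the clock-controlled factors DBP, TEF and HLF are known to act upstream of several of these receptors and enzymes in mouse liver.

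The labelled tissue carried its markers. All 6 hepatocyte markers were bright, and their summed intensity stayed between 3.42e+06 and 3.79e+06 in every pool. The lung club cell and kidney tubule lists, for cells that also make P450s, each had 1 of 3 genes at a mean of 100 or more, with summed intensities of at most 283.9 and 260.5. The pancreatic acinar list (3 of 5 genes measured) summed to between 4360 and 262000 over the pools, and to between 5710 and 8683 in CT60 to CT65. The array medians were 95.2 to 110.9, and 38.5% of genes had a mean under 100, here taken as near background. CT61 stood farthest from the other pools, with a median correlation of 0.984 with them, against a mean of 0.989 over CT60 to CT65 and 0.994 over CT36 to CT41. With 1 pool per hour, the p-values rest on the spread between hours. In bulk liver, fewer cells of a type and less RNA per cell cannot be told apart.

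Of the 56 P450 genes, 39 had a mean intensity of at least 100: 1 in Cyp1 (Cyp1a2), 26 in Cyp2, 4 in Cyp3 and 8 in Cyp4. The other 17 had means of 46.4 to 96.5, the uppermost being Cyp3a16, and the lowest mean above the line was 157 for Cyp2g1. Cyp1a1 and Cyp1b1, both AHR targets, were among the 17, and so was Cyp2b9, whose median was 52.2 although a single pool, CT60, reached 666.7. Low values in these genes cannot be read as absence of the transcript.

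The first question was which P450 transcripts cycled. A gene was called rhythmic where Fisher's G-test and a cosine fit both gave q under 0.05, with the class taken from the period that the cosine fit chose. The 24 h class held 10 of the 56 P450 genes (17.9%), beside 14.7% of all genes, and 9 of the 39 with a mean of at least 100 (23.1%), beside 23.1% of all genes at that level. The P450 genes were thus called about as often as genes at large. The 10 were Cyp2b10, Cyp2c50, Cyp2c65, Cyp2c70, Cyp2g1, Cyp2j9, Cyp2u1, Cyp3a13, Cyp3a25 and Cyp4f15: 7 of 35 in Cyp2, 2 of 5 in Cyp3, 1 of 13 in Cyp4 and 0 of 3 in Cyp1. No P450 gene entered the 12 h class (1.07% of all genes and 1.73% of those with a mean of at least 100 did). With only probe sets of a mean of at least 100 tested, Cyp2d9 entered it by q. None had a 12 h period with unadjusted p under 0.05 in both tests, Cyp2d9 included. That threshold was thus not always the looser, and it adds no support to the absence. Only Cyp2c68 entered the 8 h class, beside 0.352% of all genes, and after quantile normalization it did not.

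**Figure D1:**
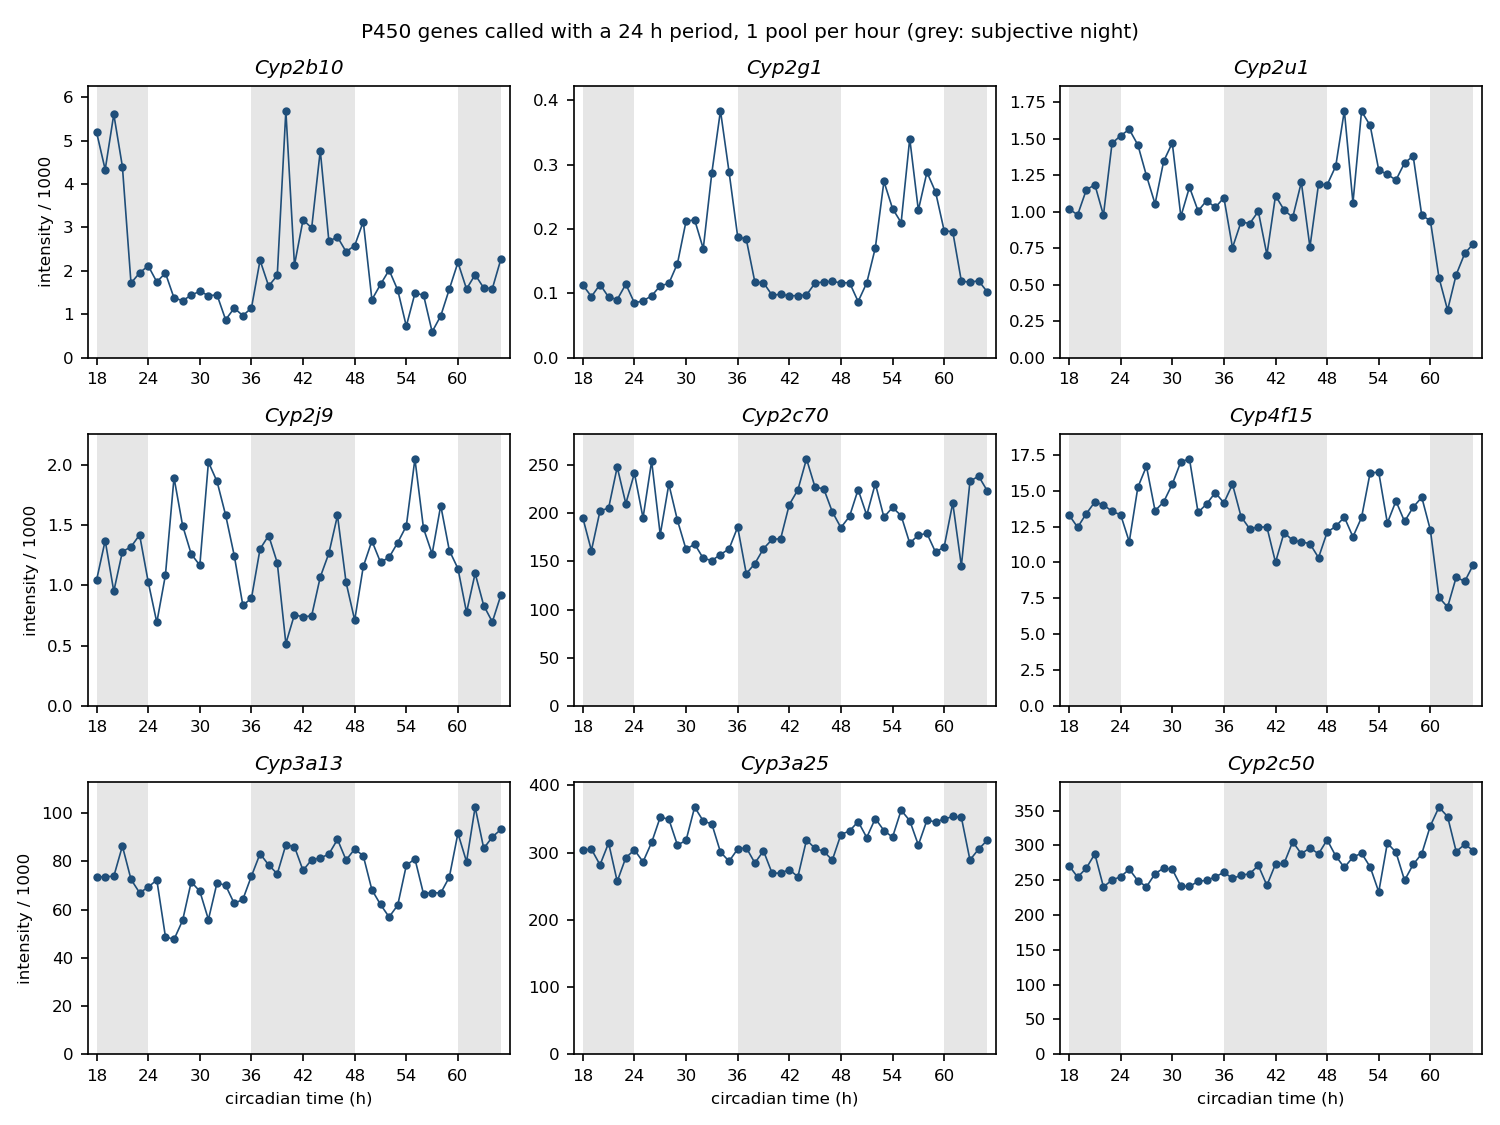
Intensity divided by 1000, on axes from 0, against circadian time in hours for the 9 P450 genes of the 24 h class with a mean of at least 100; each point is 1 pool and grey marks subjective night. Cyp2b10 was highest within the first and the middle night and Cyp2g1 within both days, while Cyp2c50 hardly moved.

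Cyp2b10, the classic phenobarbital-inducible enzyme and target of CAR, had the largest 24 h amplitude, although the fit explained 66.8% of its variance, against 86.7% for Cyp2g1. Its intensity was lowest at CT57 (595), with a median of 1730 and the highest value at CT40 (5688). In the second cycle it was between 595 at CT57 and 4768 at CT44, and in the first cycle between 873 at CT33 and 5688 at CT40. The 6 highest pools were CT18 to CT21, CT40 and CT44, all in subjective night, and the 5 lowest were CT33, CT35, CT54, CT57 and CT58, all in subjective day. In the last night, CT60 to CT65, it reached 2274 at most. Its 24 h component, fitted by limma, had an amplitude of 0.79 ± 0.09 on the log2 scale (SE, 48 pools), a fitted peak 2.98 times the trough, and a peak at CT19.7 ± 0.48 h (adjusted p = 5.6e-08). The gene had 3 probe sets and all were called, with amplitudes of 0.84 and 0.88 for the other 2 and peaks at CT20.0 and CT19.7. It lies at chr7:25897658-25926624 in GRCm38.p6. The 250 bases before its RefSeq start (chr7:25897408-25897657, plus strand) are shown because no other P450 gene had so large an amplitude, with matches to the motif GCGTG, the core of the element that AHR binds, in capitals on either strand.
Cyp2b10: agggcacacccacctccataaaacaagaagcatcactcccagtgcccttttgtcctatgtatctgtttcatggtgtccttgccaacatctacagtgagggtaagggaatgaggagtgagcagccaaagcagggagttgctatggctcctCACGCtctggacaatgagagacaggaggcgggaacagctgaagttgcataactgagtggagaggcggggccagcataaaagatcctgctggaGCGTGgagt

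Cyp2g1, known from the olfactory epithelium of rodents, had the largest amplitude among transcripts that peaked by day, although it was dim. The lowest value was 85.1 at CT24, the median 117 and the highest 384 at CT34. In the second cycle its maximum was 340 at CT56 and its minimum 87.2 at CT50, and in the first cycle the maximum was 384 at CT34 and the minimum 85.1 at CT24. Its median lay close to the array medians, near background. The amplitude was 0.69 ± 0.05 and the peak at CT8.9 ± 0.28 h (adjusted p = 1.1e-13), 10.9 h from that of Cyp2b10. Cyp2g1 also had a 12 h component (adjusted p = 0.00013).

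Cyp2u1 and Cyp2j9, which act on long-chain fatty acids, were both higher by day. Cyp2u1 ran between 326 at CT62 and 1692 at CT50, with a median of 1086. Its amplitude was 0.42 ± 0.06 with a peak at CT3.3 ± 0.58 h (adjusted p = 3.9e-06). Cyp2j9 ran between 516 at CT40 and 2046 at CT55, with a median of 1211. Its amplitude was 0.36 ± 0.07 with a peak at CT6.0 ± 0.81 h (adjusted p = 0.00043). In the first cycle Cyp2j9 was also highest by day, at 2020 (CT31). Cyp2u1 in CT61 to CT65 was 326 to 781, and in CT37 to CT41 it was 705 to 1003, so the last night was the deeper of the pair.

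Cyp2c70 takes part in making muricholic acids, the bile acids typical of mice. Its intensity had a minimum of 137170 at CT37, a median of 195480 and a maximum of 256320 at CT44. It had an amplitude of 0.26 ± 0.04 and a peak at CT23.0 ± 0.51 h (adjusted p = 3.8e-06), with peaks of CT21.3 in the second cycle and CT23.8 in the first. At the second dawn, CT48, it was 185007, under its median. Cyp4f15, from a subfamily that inactivates leukotriene B4, ranged between 6885 at CT62 and 17216 at CT32 around a median of 13168. It peaked at CT6.7 ± 0.67 h with an amplitude of 0.23 ± 0.04 (adjusted p = 2.7e-05), and its lowest pools were again those after CT60.

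Cyp3a13 and Cyp3a25, 2 members of the subfamily that handles most drugs in liver, cycled out of step. Cyp3a13 was lowest at CT27 (47579), had a median of 73729 and was highest at CT62 (102510). It peaked by night, at CT17.7 ± 0.54 h, with an amplitude of 0.22 ± 0.03 (adjusted p = 2.9e-07). Cyp3a25 was lowest at CT22 (257080), had a median of 312750 and was highest at CT31 (367620). It peaked by day, at CT6.2 ± 0.74 h, with an amplitude of 0.11 ± 0.02 (adjusted p = 0.00011). The peaks were 11.5 ± 0.92 h apart, a contrast singled out after the values were seen and therefore not tested. Both genes lie on chromosome 5. The 250 bases before the first listed RefSeq start of each are shown to set the out-of-step pair side by side. They lie on the minus strand of GRCm38.p6 at chr5:137921620-137921869 for Cyp3a13 and chr5:146009619-146009868 for Cyp3a25. The stretch for Cyp3a13 lies inside the annotated gene, chr5:137892933-137925610, and not before its outer end. That for Cyp3a25 overlaps the outer end of its annotated gene, chr5:145977192-146009644, and extends beyond it. Capitals mark CCAAT, the box bound by NF-Y, and AGGTCA, the core hexamer that many nuclear receptors bind, on either strand.
Cyp3a13: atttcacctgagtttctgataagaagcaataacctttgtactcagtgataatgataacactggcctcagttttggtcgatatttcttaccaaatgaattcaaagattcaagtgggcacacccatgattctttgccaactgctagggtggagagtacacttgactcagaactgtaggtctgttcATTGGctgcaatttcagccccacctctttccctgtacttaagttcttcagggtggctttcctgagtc
Cyp3a25: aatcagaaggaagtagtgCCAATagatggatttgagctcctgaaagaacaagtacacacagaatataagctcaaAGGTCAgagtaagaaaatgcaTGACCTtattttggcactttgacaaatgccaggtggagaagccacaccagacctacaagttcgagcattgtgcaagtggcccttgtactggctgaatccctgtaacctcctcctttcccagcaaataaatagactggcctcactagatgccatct

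A window of 300 bases around a gene's first listed RefSeq start (250 before it and 50 after) was listed for 43 of 56 genes. It was searched on both strands for 6 motifs, none of which overlapped another in the promoters printed. AGGTCA was present in 12 of the 43 (27.9%), beside 16% of all 27025 promoters, and in 2 of the 8 listed genes of the 24 h class, Cyp2c70 and Cyp3a25. The E-box CACGTG, which CLOCK and BMAL1 bind, was found in 2 of 43, Cyp2j6 and Cyp4v3 (7.24% of all promoters), and in 0 of the 8. The D-box TTATGTAA, bound by DBP, TEF and HLF, was found in 0 of 43 (0.955% of all). TATAAA was present in 17 of 43 (39.5%; 14.2% of all), CCAAT in 21 (48.8%; 37.9% of all) and GCGTG in 11 (25.6%; 32.5% of all). Of the 8 listed genes of the 24 h class, CCAAT was in 6, TATAAA in 2, GCGTG in 2 and the D-box in 0. These are matches of letters within a short window only.

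The last 2 members of the 24 h class moved little. Cyp2c50 had an amplitude of 0.06 ± 0.02 around a median of 268650, and its highest value, 354970, was at CT61. Its G-test period was 48 h (q = 0.016), whereas the cosine fit chose 21.4 h (q = 0.039). Cyp2c50 left the class with Benjamini-Hochberg adjustment and with the period taken from the G-test. It also left when detrending was added to the G-test or dropped from the cosine fit. It stayed on linear intensities and with only probe sets of a mean of at least 100 tested. Without a trend in limma its 24 h component did not pass (amplitude 0.05, adjusted p = 0.227). Cyp2c65 lay near background at 61.4 to 80.5, with an amplitude of 0.04 ± 0.01. Neither was called by both tests after quantile normalization, and the same held for Cyp2j9.

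The limma fit sizes a component at 24 h, 12 h and 8 h for each gene, and at adjusted p under 0.05 it is the more permissive test. A 24 h component passed in 24 of 56 P450 genes (42.9%), beside 52.7% of all genes, and in 19 of the 39 with a mean of at least 100 (48.7%), beside 56.4%. It passed in every member of the 24 h class. A fitted peak at least 1.5 times the trough was also reached by 5 of the 56, beside 9.26% of all genes: Cyp2b10, Cyp2c55, Cyp2g1, Cyp2j9 and Cyp2u1. All 5 were in Cyp2. Without CT60 to CT65, 13 of the 24 genes kept a 24 h component, 11 lost it and 3 gained one, and of the 10 genes of the 24 h class 9 kept it, all but Cyp2c65. Over the 39 genes the median amplitude was 0.11, beside 0.13 for all genes at that level. By family it was 0.09 in Cyp2, 0.12 in Cyp3 and 0.17 in Cyp4. By subfamily, 3 of 11 Cyp2c genes were in the 24 h class and 6 had a 24 h component, against 0 and 2 of 8 Cyp2d genes. The Cyp4f subfamily had 1 and 2 of 7, Cyp4a 0 and 1 of 3, Cyp2j 1 and 2 of 5, and Cyp2b 1 and 3 of 4, where Cyp2b13 and Cyp2b19 were near background and had amplitudes of 0.01 and 0.03. The class counts of Cyp2c and Cyp2d depended on probe set and setting. A dimmer probe set of Cyp2d13 was in the 24 h class (amplitude 0.36 ± 0.08). With only probe sets of a mean of at least 100 tested, Cyp2d13 and Cyp2c55 entered the class and Cyp2c65 left it. After quantile normalization Cyp2c50 and Cyp2c65 left it.

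**Figure D2:**
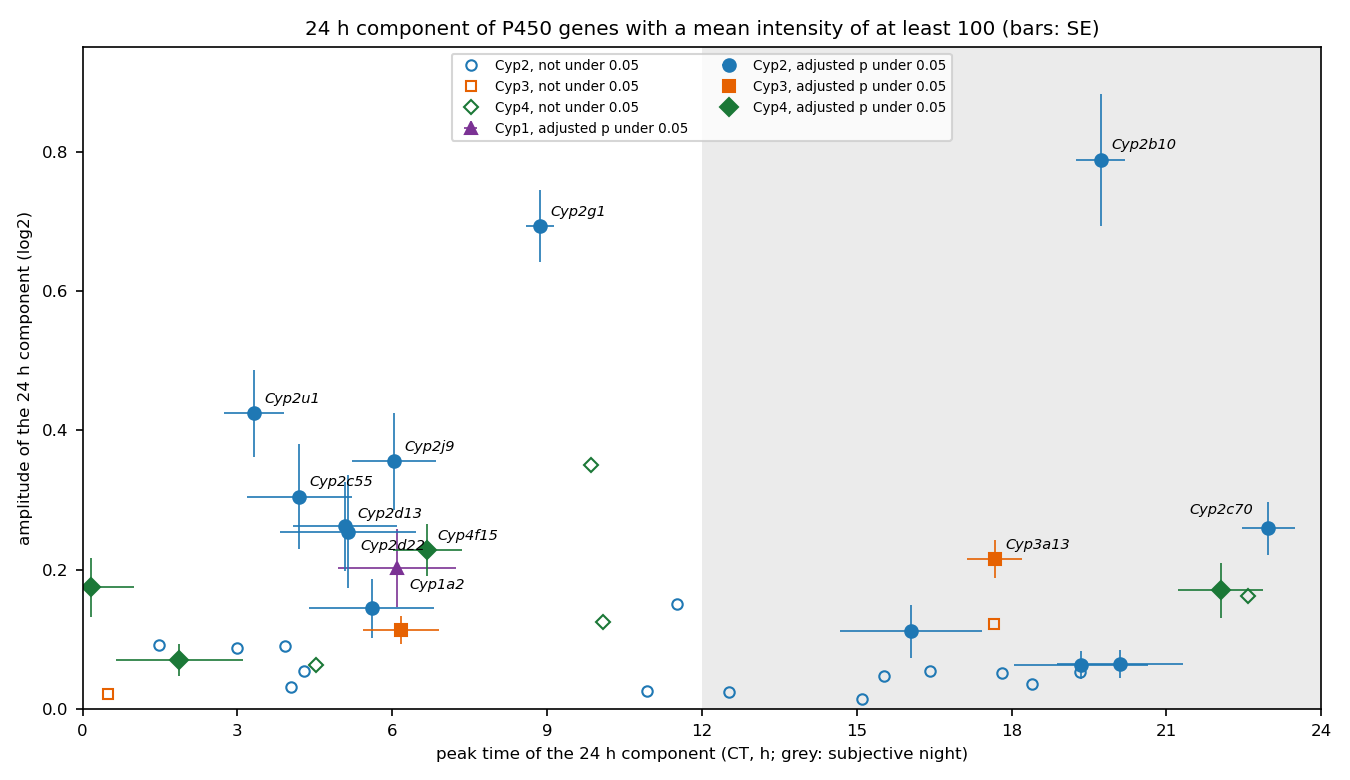
Amplitude (log2) against peak time (CT, hours) of the 24 h component for the 39 P450 genes with a mean of at least 100, by family; filled symbols, with SE bars, had an adjusted p under 0.05 and open symbols did not. The filled points split into 12 by day and 7 by night, and Cyp2b10 (0.79 at CT19.7) and Cyp2g1 (0.69 at CT8.9) stand above the rest.

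The peaks of the 19 brighter genes with a 24 h component fell by day in 12 and by night in 7. For all genes at that level with a 24 h component, 3672 peaked by day and 2641 by night, so day peaks were the more common there too. Among the 19, families were mixed by day and by night. Between CT3 and CT9 lay 10 genes: Cyp1a2, Cyp2c23, Cyp2c55, Cyp2d13, Cyp2d22, Cyp2g1, Cyp2j9, Cyp2u1, Cyp3a25 and Cyp4f15. Between CT15.5 and CT23 lay 7: Cyp2b10, Cyp2c37, Cyp2c50, Cyp2c70, Cyp2j5, Cyp3a13 and Cyp4a12a. The other 2, Cyp4f14 (CT0.2 ± 0.85 h) and Cyp4v3 (CT1.9 ± 1.2 h), had fitted peaks near dawn. The SE of Cyp4f14 spans the line between night and day. Its peaks were CT1.4 in the second cycle and CT20.6 in the first, and its component differed between the cycles, so 1 peak time describes it only in part. A second Cyp4v3 probe set peaked at CT22.2, by night, and its 24 h component did not pass (limma adjusted p = 0.133). In Cyp2 the split was 7 by day and 5 by night, in Cyp3 1 and 1, and in Cyp4 3 and 1.

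Among them were enzymes with well-known substrates. Cyp1a2, which clears caffeine and is an AHR target, had a median of 143630, a minimum of 54119 at CT61 and a maximum of 209420 at CT26. Its component peaked at CT6.1 ± 1.14 h with an amplitude of 0.20 ± 0.06 (adjusted p = 0.013). That call was lost without CT60 to CT65 (adjusted p = 0.105), with an amplitude of 0.13. Among the others of the 11 calls lost without these pools were those of Cyp2d22 and Cyp4v3 (adjusted p = 0.201 and 0.444), with amplitudes of 0.09 and 0.03, and that of Cyp2j5 (adjusted p = 0.106), whose amplitude of 0.05 was close to the 0.06 over all pools. Cyp2c55, an arachidonic acid hydroxylase induced through CAR and PXR, had a median of 5533, a minimum of 2159 at CT60 and a maximum of 9826 at CT52. The amplitude of Cyp2c55 was 0.31 ± 0.08 and its peak CT4.2 ± 1.0 h (adjusted p = 0.0061). Cyp4a12a, the male-predominant enzyme that makes 20-HETE, had a median of 120310 and peaked at CT22.0 ± 0.83 h, with an amplitude of 0.17 ± 0.04 (adjusted p = 0.0031).

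The 20 brighter genes without a 24 h call included enzymes well known from drug metabolism. Cyp2e1, which oxidises ethanol and paracetamol, had the smallest percentile ratio of the 39. Its lowest value was 433590 (CT29), its median 461420 and its highest 509530 (CT59), so that the 95th percentile was 1.12 times the 5th. The 24 h amplitude of Cyp2e1 was 0.02 ± 0.01 (adjusted p = 0.107). It passed after quantile normalization (amplitude 0.03, adjusted p = 0.0126) and without a trend (0.04, adjusted p = 0.0151). Cyp3a11, a PXR target often likened to human CYP3A4, lay between 359650 (CT38) and 485060 (CT61), with a 95th to 5th percentile ratio of 1.18 and an amplitude of 0.02 ± 0.02 (adjusted p = 0.499). Cyp2d9 and Cyp2d10 had ratios of 1.32 and 1.25. A p above the threshold does not show that these levels were constant.

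Other members varied widely without a called rhythm. Cyp4a14, a fatty acid hydroxylase and target of PPAR alpha, had the largest spread after Cyp2b10, with a percentile ratio of 3.90. It was 13266 at CT43, 81830 at CT60 and 47957 at the median. Neighbouring hours could differ severalfold: it was 41811 at CT42, 13266 at CT43 and 55721 at CT44. Its 24 h component, of amplitude 0.35 ± 0.13 and peak CT9.8 ± 1.4 h, did not pass (adjusted p = 0.078). Cyp4a31 had a ratio of 2.36 and Cyp3a44, a female-predominant gene, 2.48. The median ratio over the 39 was 1.64, beside 1.68 for all genes at that level.

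**Figure D3:**
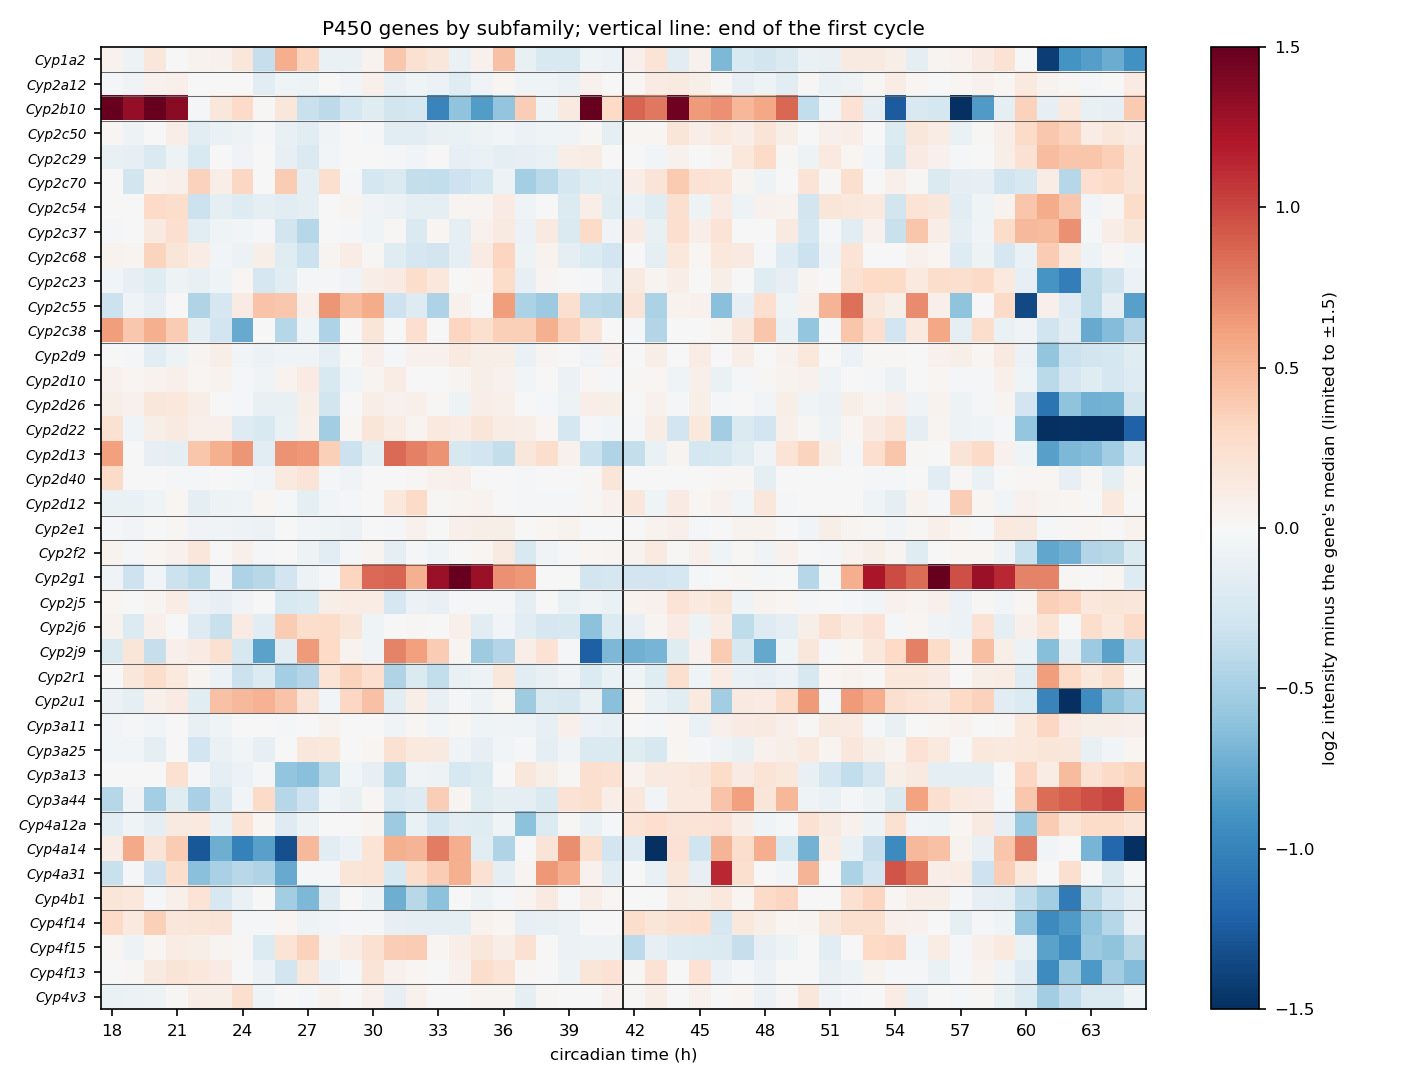
Log2 intensity minus the gene's median (colour, limited to ±1.5) for the 39 P450 genes with a mean of at least 100 (rows, by subfamily) over the 48 pools (columns, circadian time in hours); the vertical line ends the first cycle. The last 5 columns are dark blue for Cyp2d22 and blue for Cyp2d26, Cyp4f13, Cyp4f14 and Cyp4f15, and red for Cyp3a44.

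Shorter periods were rare. Cyp2c68 had an 8 h component of amplitude 0.14 ± 0.03 (adjusted p = 0.013) around a median of 123430. Cyp2r1, a vitamin D 25-hydroxylase, had one of 0.16 ± 0.04 (adjusted p = 0.045) but was not called by both tests. These were 2 of 56, beside 2.13% of all genes and 3.42% of those with a mean of at least 100. A 12 h component passed in Cyp2g1 and in Cyp2c23 (adjusted p = 0.041), 2 of 56, beside 7.13% of all genes. Leaving out single pools gave a 12 h count of 4 without CT19 or CT40 and of 1 without any of 17 pools, and an 8 h count of 1 without any of 28.

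Paralogs were compared next, since 2 genes read on the same arrays share what an array adds to both. Of 13 listed pairs, 10 could be tested, and the 24 h component differed in 9 of them after adjustment over the 10. Cyp3a13 and Cyp3a25 each differed from Cyp3a11, by components of 0.22 ± 0.03 and 0.11 ± 0.02 (adjusted p = 1.35e-06 and 2.26e-05, F-test over 48 pools). The difference of Cyp2b10 from Cyp2b9 was 0.67 ± 0.15 (adjusted p = 0.00028), but Cyp2b9 was near background, so that this pair shows the rhythm of Cyp2b10 only and says nothing of Cyp2b9. Cyp2c70 and Cyp2c23, an epoxygenase once named Cyp2c44, had peaks at CT23.0 and CT5.6, and their difference was 0.32 ± 0.06 (adjusted p = 3.65e-05). Cyp2c55 and Cyp2c29, both CAR and PXR targets, had fitted peaks at CT4.2 and CT17.8, with a difference of 0.35 ± 0.08 (adjusted p = 0.00028). The 24 h component of Cyp2c29 itself did not pass (0.05 ± 0.02, limma adjusted p = 0.12), so its peak time is not established. Cyp2j5 and Cyp2j6, which form epoxides of arachidonic acid, differed by 0.14 ± 0.04 (adjusted p = 0.002), but their probe sets disagreed. The Cyp2j5 probe set used peaked at CT19.3 and a second at CT0.9, while that of Cyp2j6 peaked at CT3.9 and a second, of similar mean, at CT20.0 with no 24 h component (adjusted p = 0.614). Cyp4f14 and Cyp4v3 differed by 0.12 ± 0.03 (adjusted p = 0.0082), with amplitudes of 0.17 and 0.07 and fitted peaks 1.7 h apart. The F-test takes amplitude and peak time together, so neither was tested alone. Cyp1a2 and Cyp2f2, which activates naphthalene in lung, each differed from Cyp2e1 (adjusted p = 0.0026 and 0.0032).

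Only for Cyp2d9 and Cyp2d10 was no difference found, with components of 0.06 and 0.03 and a difference of 0.02 ± 0.02 (F-test, adjusted p = 0.386). Neither gene's own 24 h component passed (limma adjusted p = 0.135 and 0.276), so the pair shows no shared rhythm. Both lie on chromosome 15 and encode close relatives, of which Cyp2d9 is a male-predominant testosterone hydroxylase. With the rhythm and trend removed, the hour-to-hour residuals of Cyp2d9 and Cyp2d10 still went together (Pearson's r = 0.71, Spearman's rho = 0.63, adjusted permutation p = 0.0001 for each, from a raw p of 1e-05, the smallest these permutations can give). Without the 2 pools farthest from the median of Cyp2d9, r was 0.57. Cyp4f14 and Cyp4v3 had an r of 0.59 and a rho of 0.52 (adjusted permutation p = 0.0001 and 0.00095), and 0.43 without 2 pools. Cyp3a25 with Cyp3a11 gave an r of 0.43 and a rho of 0.43 (adjusted permutation p = 0.0064 and 0.0096), and 0.36 without 2 pools. Cyp2b10 with Cyp2b9 gave an r of 0.43 and a rho of 0.35 (adjusted permutation p = 0.0067 and 0.031), and 0.34 without 2 pools. Cyp2b9 was near background, with a median of 52.2, so this relation says little of variation shared by both genes. Of the 10 pairs, 7 had an adjusted permutation p under 0.05 for r, the pair with Cyp2b9 among them. For Cyp1a2 with Cyp2e1, r was 0.15 without 2 pools and 0.35 with them, and for Cyp2f2 with Cyp2e1 it was 0.18 and 0.33, so that these 2 relations rested on those pools. Their rho did not pass (adjusted permutation p = 0.129 and 0.142). Cyp2j5 with Cyp2j6 gave an r of 0.33 and a rho of 0.36 (adjusted permutation p = 0.0333 and 0.0305), and 0.32 without 2 pools. Near-identical paralogs may also share probes, which was not tested. The permutations treated the hours as exchangeable, whereas Cyp2d9 and Cyp2d10 were both low over the consecutive pools CT61 to CT65. Leaving out 2 pools does not remove such a run, so the permutation p-values may overstate the evidence.

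**Figure D4:**
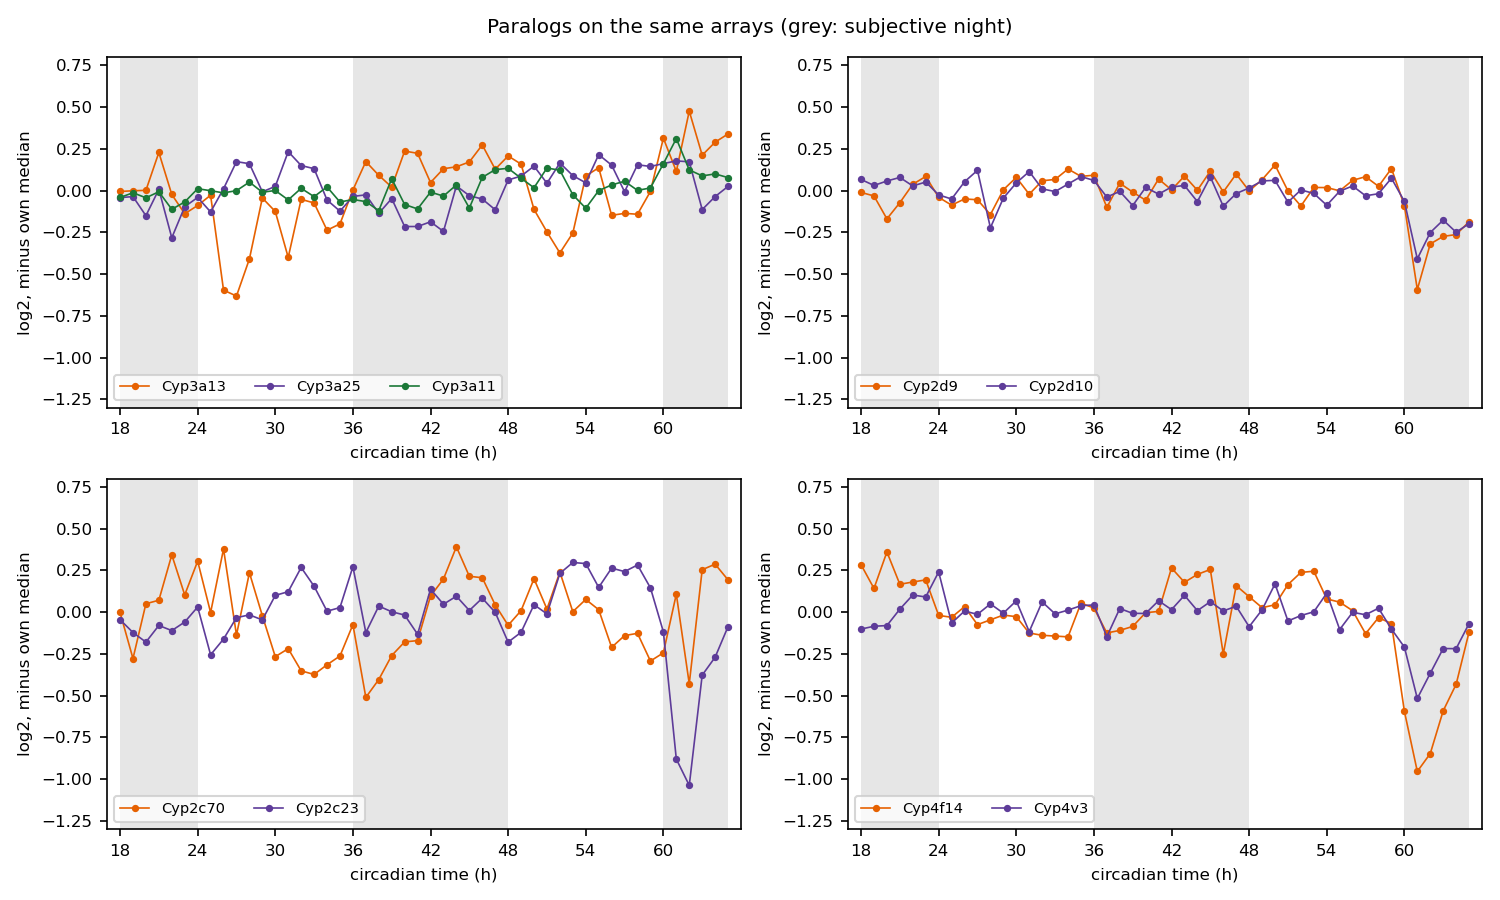
Log2 intensity minus each gene's own median against circadian time in hours for 4 sets of P450 genes read on the same arrays; each point is 1 pool and grey marks subjective night. Cyp3a13 dips in both mornings while Cyp3a25 is high, and Cyp2d9 and Cyp2d10 follow each other down at CT61.

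The cycles were then set against each other. The 24 h component differed between the second and first cycle in 9 of 56 P450 genes (16.1%), beside 6.04% of all genes, and beside 9.7% of those with a mean of at least 100. They were Cyp2c38, Cyp2d9, Cyp2d22, Cyp2d26, Cyp2f2, Cyp2j6, Cyp4b1, Cyp4f13 and Cyp4f14. Cyp2d22, often compared with human CYP2D6, had an amplitude of 0.66 in the second cycle and 0.08 in the first (adjusted p = 0.0014). The count was 0 once CT60 to CT65 and their partners CT36 to CT41 were left out, where 7 had an unadjusted p under 0.05 in limma, beside 20 over all pools. The sizes did not all shrink. Without those pools Cyp2d22 had amplitudes of 0.08 in the second cycle and 0.23 in the first, whereas Cyp2c38 had 0.13 and 0.44, with peaks at CT5.0 and CT14.7, and Cyp4b1 had 0.06 and 0.43.

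In those pools P450 genes went different ways, also within the Cyp2c subfamily. In CT60 to CT65 Cyp2d22 was 17514 at CT60, 6192 at CT61, and at most 11280 from CT62 to CT65, whereas CT36 to CT41 held 21664 to 28194, with no overlap. The mean difference was -1.45 on the log2 scale. Cyp2d26 was 98070 to 173910 in CT60 to CT65, against 199190 to 225860 in CT36 to CT41. Cyp4f13 was 3433 to 5771 in CT60 to CT65, against 6237 to 7673 in CT36 to CT41. Cyp2c38, Cyp4b1, which activates lung toxicants, and Cyp4f15 were likewise lower with no overlap. That made 6 of 56 genes (10.7%), beside 5.83% of all genes, and 6 of the 39 brighter ones (15.4%), beside 9.46%.

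Cyp2c29, Cyp2c50, Cyp2j5, Cyp2j6, Cyp3a11 and Cyp3a44 were the brighter genes that lay higher with no overlap. Cyp2c29 was 244800 to 294060 in CT60 to CT65, against 193530 to 230850 in CT36 to CT41. Cyp3a11 was 412500 to 485060 in CT60 to CT65, against 359650 to 410580 in CT36 to CT41, and Cyp3a44 was 936 to 1427 in CT60 to CT65, against 608 to 835 in CT36 to CT41. With 6 genes near background these were 12 of 56 (21.4%), beside 14.8% of all genes, and 6 of 39 (15.4%), beside 7.34% of genes with a mean of at least 100. Beside these counts stand genes that overlapped, such as Cyp2e1, with 451020 to 506460 in CT60 to CT65, against 457970 to 491210 in CT36 to CT41.

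The hour CT61 held the extreme value of many members. Of the 39 brighter genes, 10 (25.6%) had their lowest value there, beside 15.3% of genes at that level (9.49% of all): Cyp1a2, Cyp2d9, Cyp2d10, Cyp2d13, Cyp2d22, Cyp2d26, Cyp2f2, Cyp4f13, Cyp4f14 and Cyp4v3. They included 5 of the 7 brighter Cyp2d genes. Another 8 (20.5%) had their highest value there, beside 11.3%: Cyp2c29, Cyp2c50, Cyp2c54, Cyp2c68, Cyp2j5, Cyp2r1, Cyp3a11 and Cyp4a12a. With 3 genes near background, 11 of 56 (19.6%) were highest at CT61, beside 11.3% of all genes. In the same pools the hepatocyte sum was 3.49e+06 to 3.71e+06, against 3.45e+06 to 3.61e+06 in CT36 to CT41, and the sum of the 6 endothelial markers was 26640 to 29550 in CT60 to CT65, against 25640 to 28720 in CT36 to CT41, although their median difference was -0.52 on the log2 scale. The part of these pools' lower correlation with the others in the P450 values was not tested.

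**Figure D5:**
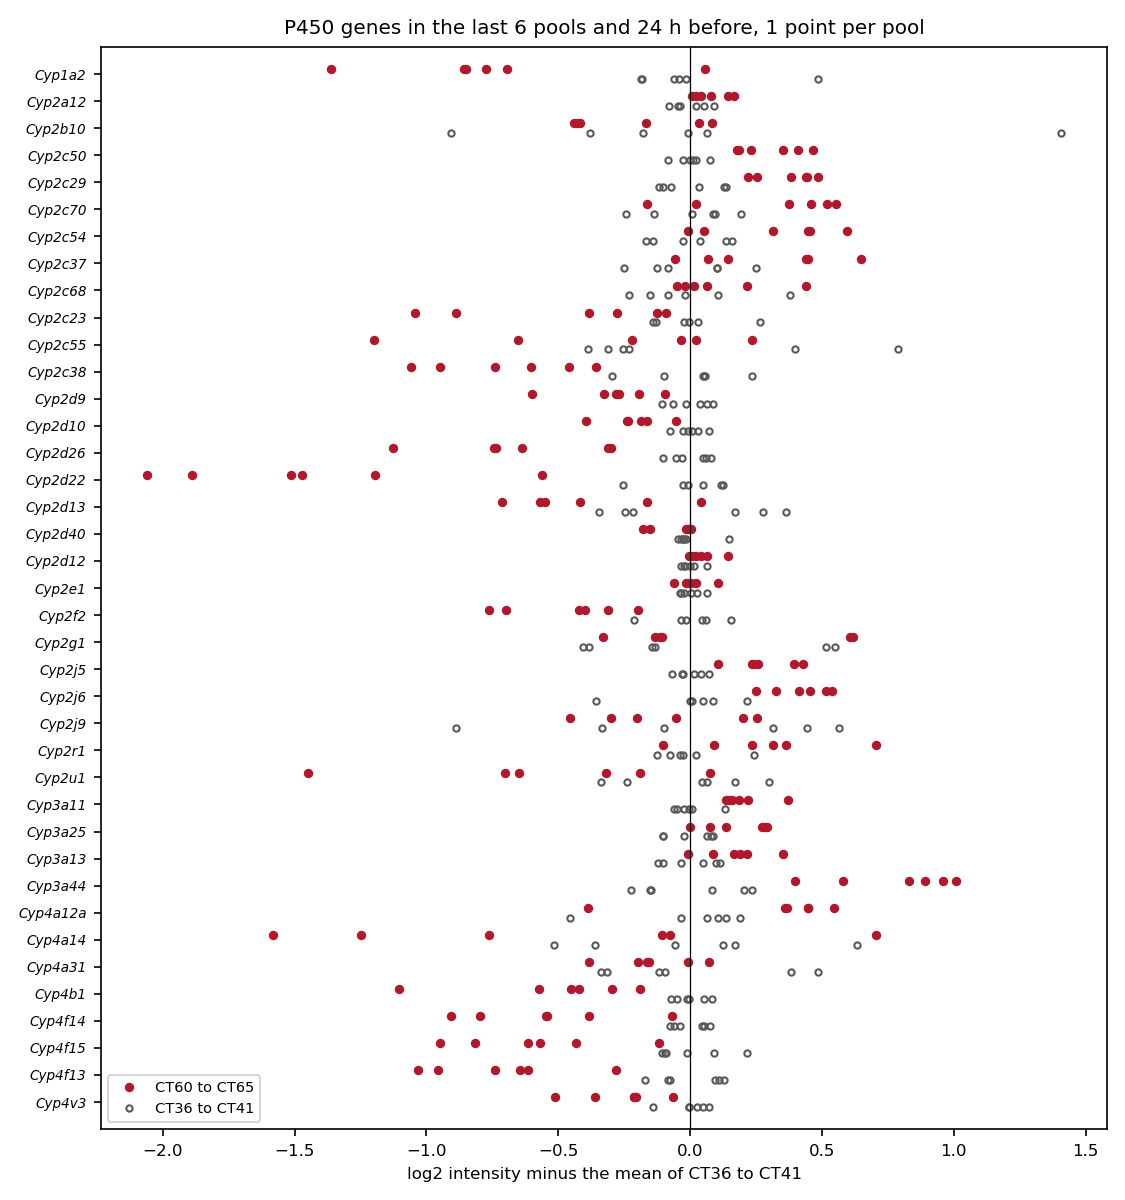
Log2 intensity minus the gene's mean over CT36 to CT41, 1 point per pool, for CT60 to CT65 (red, filled) and CT36 to CT41 (grey, open) in the 39 P450 genes with a mean of at least 100, by subfamily. Cyp2d22 lies lowest in CT60 to CT65 and Cyp3a44 highest, and the open points of most genes sit close to 0.

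Levels at the same circadian hour were compared between the cycles, second against first. In the second cycle 24 of 56 P450 genes were higher (42.9%), beside 38.0% of all genes, but 11 of these were near background, and 13 of the 39 brighter genes were higher (33.3%), beside 17.7%. All 5 Cyp3a genes were among the 24, with rises of 0.42 ± 0.08 for Cyp3a44, 0.16 ± 0.04 for Cyp3a13 and 0.09 ± 0.02 for Cyp3a11 (log2, adjusted p = 0.0003, 0.0012 and 0.0023). Cyp2c29 and Cyp2c50 each rose by 0.18 (SE 0.04 and 0.03, adjusted p = 0.00046 and 0.00028) and Cyp4a12a by 0.20 ± 0.06 (adjusted p = 0.0054). Lower in the second cycle were 8 of 56 (14.3%), beside 16.2% of all genes, and 8 of the 39 (20.5%), beside 26.1%. Among the 8, Cyp2d22 fell by 0.42, Cyp1a2 by 0.28, Cyp4f15 by 0.27, Cyp2d13 by 0.27 and Cyp4f13 by 0.22. The others, Cyp2d26, Cyp2d10 and Cyp2d40, fell by 0.17, 0.07 and 0.05. Without CT60 to CT65 and CT36 to CT41, 17 were higher and 1 was lower, and after quantile normalization 10 were higher and 4 lower. In all 3 fits 9 were higher: Cyp1b1, Cyp2c29, Cyp2c50, Cyp2j5, Cyp3a11, Cyp3a13, Cyp3a16, Cyp3a44 and Cyp4a12a. Only Cyp4f15 was lower in all 3. Cycle cannot be told apart from anything else that went with the time of collection.

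Lists of P450 genes grouped by what controls or distinguishes them gave the following counts. Of 5 CAR and PXR targets, only Cyp2b10 was in the 24 h class, Cyp2c55 also had a 24 h component, and Cyp2b9, Cyp2c29 and Cyp3a11 did not pass. For all genes the shares were 14.7% for the class and 52.7% for the component. Of 3 AHR targets none was in the class and 2 had a 24 h component. These were Cyp1a2 and Cyp1b1, the latter near background with an amplitude of 0.05, and both calls were lost without CT60 to CT65. Cyp4a14, the PPAR alpha target that could be read, was not in the class and its 24 h component did not pass. None of 4 female-predominant genes, 3 of them near background, and neither of the male-predominant Cyp2d9 and Cyp4a12a was in the class. A 24 h component was found in 2 of the 4 and in Cyp4a12a. The 2 were Cyp2b13 and Cyp3a16, both near background, with amplitudes of 0.01 and 0.05. The brighter Cyp3a44 did not pass (limma adjusted p = 0.093). Of 7 epoxygenase genes 1, Cyp2j9, was in the class and 3 had a 24 h component.

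The partners and regulators were read on the same arrays. Of 18 listed, 17 were measured, 9 were in the 24 h class and 14 had a 24 h component, beside 23.1% and 56.4% of all genes with a mean of at least 100, a level that each of the 17 reached. The list holds clock-controlled factors such as Dbp, Tef and Hlf by choice, so its higher counts were partly set by that choice. Alas1, the rate-limiting enzyme of heme synthesis, had an intensity of 10449 at CT52, 61273 at the median and 219792 at CT38. It peaked at CT12.5 ± 0.48 h with an amplitude of 1.22 ± 0.17 (adjusted p = 8.1e-07). Nr1i3 (CAR) peaked at CT12.3 ± 0.56 h with an amplitude of 0.24 ± 0.04 (adjusted p = 1.8e-05), although it was not in the 24 h class. Nr1i2 (PXR) peaked at CT12.2 ± 0.43 h and Ppara at CT9.3 ± 0.36 h, with amplitudes of 0.36 ± 0.04 and 0.51 ± 0.05 (adjusted p = 9.8e-08 and 2.5e-10). Dbp had the largest amplitude, 3.85 ± 0.13 with a peak at CT10.2 ± 0.12 h, and Tef had 1.21 ± 0.07 at CT11.6 ± 0.21 h. Nfil3, the repressor at the same sites, peaked at CT22.7 ± 0.29 h. The peak of Cyp2b10 came 7.4 ± 0.74 h after that of Nr1i3 in these fits. Between the cycles the 24 h component differed in 3 of the 17, beside 9.7% of all genes at that level. They were Ephx1, Nr1i3 and Ppara (limma, adjusted p = 0.00089, 0.034 and 0.022), so 1 peak time describes Nr1i3 only in part.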

How the data were processed

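Each of the 48 hourly liver pools was read on 1 array. The deposited values are linear intensities for 45101 probe sets. Per the study's methods the authors extracted intensity values with GCRMA and used MAS5 for present and absent calls; the labels name MAS5, with no version, and which made the values was not tested. A column of symbols came from the platform annotation (34958 probe sets with 1 symbol, 932 with several, 9211 with none). Values were transformed to log2 here. No array equalled another, and array number limits the precision.

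Fisher's G-test over 23 Fourier frequencies and a cosine fit after COSOPT (linear trend removed, trial periods 4 to 30 h at a spacing of 0.1 h, p from 1000 scramblings) were converted to Storey q-values over all probe sets. The 24 h class took periods between 20 and 30 h, the 12 h class between 10 and 14 h, and the 8 h class between 7 and 9 h. Components at 24, 12 and 8 h, the difference between cycles and the level by cycle were fitted in limma 3.58.1 (R 4.3.3) with Benjamini-Hochberg adjustment over all probe sets. Paralog pairs were tested by an F-test on the difference of log2 values, and residuals by two-sided permutation tests with 100000 resamples. Python 3.11.15, numpy 2.4.6, pandas 2.3.3, scipy 1.17.1 and matplotlib 3.10.9 were used, and the tests were run first on simulated data.

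The members, gene lists, pairs and the block CT60 to CT65 were chosen with earlier results of these data known. Genes were named where called by both tests, among the 4 of highest mean per family, among the 5 of largest ratio of the 95th to the 5th percentile, in a pair, or called between cycles; others are named where a count asks for it. All 56 genes matched the RefSeq annotation by gene ID, and promoter sequences are from RefSeq (GRCm38.p6). Alternatives were other scales, detrending, adjustments, filters, normalizations, probe sets and left-out pools.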

Additional observations from a re-analysis of the deposited data

Results flagged for a closer look

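In 9 P450 genes the 24 h component differed between the second and the first cycle by limma's test of the interaction, adjusted over all probe sets. The adjusted p was 0.00107 for Cyp4b1, 0.00136 for Cyp2d22, 0.00258 for Cyp2d26, 0.00269 for Cyp2c38 and 0.00269 for Cyp4f14. It was 0.0094 for Cyp2f2, 0.0107 for Cyp4f13, 0.0148 for Cyp2d9 and 0.0356 for Cyp2j6. Amplitudes in the second and first cycle were 0.33 and 0.26 for Cyp4b1, 0.29 and 0.05 for Cyp2d26, 0.34 and 0.15 for Cyp4f14, 0.23 and 0.05 for Cyp2f2, 0.26 and 0.05 for Cyp4f13, and 0.14 and 0.05 for Cyp2d9 (log2). Cyp2c38 and Cyp2j6 went the other way, with 0.25 and 0.07 in the second cycle and 0.34 and 0.20 in the first. Peaks of Cyp4b1 were at CT1.7 in the second cycle and CT17.5 in the first. In 8 of the 9 the mean over CT60 to CT65 was below that over CT36 to CT41, with a difference of -1.45 on the log2 scale in Cyp2d22, and in Cyp2j6 it was above it by 0.42. Without CT60 to CT65 and CT36 to CT41 none of the 9 passed, and 7 of 56 had an unadjusted p under 0.05. The amplitudes in the second and first cycle were then 0.13 and 0.44 for Cyp2c38 and 0.06 and 0.43 for Cyp4b1, so the lost calls do not show that these differences lay in those pools.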

How the results depend on the processing

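Among tests of both kinds, the 24 h class kept 8 of its 10 genes with Benjamini-Hochberg adjustment, 7 after quantile normalization, and 10 on linear intensities. With both tests run on probe sets of a mean of at least 100, the 12 h class had 1, Cyp2d9, and after quantile normalization the 8 h class had 0, with Cyp2c68 lost. With limma's component in place of both tests, the 24 h class had 24 genes, the 12 h class 2 and the 8 h class 2. The 24 h components, 24 over all pools, were 8 in the first cycle alone and 31 in the second alone, and 16 without CT60 to CT65, of which 13 were shared. With single pools left out they were 20 to 28, the 12 h components 1 to 4 and the 8 h components 1 to 2. The 12 h count was 1 without CT60 to CT65, 1 without CT63 to CT65 and 0 in the first cycle. The 8 h count was 0 in either cycle alone, and 1 on linear intensities, after quantile normalization or without a trend. Differences between cycles numbered 0 without CT60 to CT65 and CT36 to CT41 and 9 after quantile normalization. Level changes without these pools were 17 higher and 1 lower, and after quantile normalization 10 higher and 4 lower. The 24 h component of Cyp2d22 moved its peak to CT12.1 in the first cycle alone (adjusted p = 0.749). The 9 paralog differences stayed 9 in both alternatives. The causes were not tested. The level comparison already paired the 24 hours of the cycles. Background limits the 17 dim genes.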
